A study of Mus musculus with 11 samples.

Results

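Cytochrome P450 enzymes of families 1 to 4 were followed in liver sinusoidal endothelial cells (LSECs), the fenestrated endothelium of the liver, from mice with and without endothelial Atg5. All gene symbols on the array that begin with Cyp, a family number from 1 to 4, a subfamily letter and a gene number were taken, with the brightest transcript cluster for each symbol. This gave 80 genes among 19505 named genes, each with 1 cluster. The pattern of names used no measured value, but it was chosen with earlier results of these data known. They comprised 3 genes of family 1, 47 of family 2, 9 of family 3 and 21 of family 4.

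Both groups carried floxed Atg5 alleles (Atg5lox/lox), and Atg5 is a gene needed to form autophagosomes. The knockout carried VE-cadherin-Cre in addition, a recombinase driven by an endothelial promoter that is not limited to LSECs. The 6 wild type and 5 knockout arrays came from mice that were 8 weeks old when a high fat diet began and that ate it for 2 weeks. Each array is a numbered biological replicate. The labels give neither sex nor whether animals were pooled, so a p-value here speaks of the spread between these samples only, which may be technical. No samples from a normal diet were analysed here. Y-linked genes were above background on 2 wild type arrays and 1 knockout array, as described below.

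P450 enzymes are heme proteins of the endoplasmic reticulum that insert an oxygen atom into their substrates, with electrons passed on by P450 reductase or cytochrome b5. Families 1 to 3 oxidise drugs, environmental chemicals and steroids and are best known from hepatocytes, while family 4 hydroxylates the ends of fatty acids and eicosanoids. Some members work outside hepatocytes: Cyp2j and some Cyp2c enzymes make epoxides of arachidonic acid that relax vessels, and Cyp1b1 is known from vascular and mesenchymal cells. Family 1 is induced through the aryl hydrocarbon receptor, which binds DNA with Arnt at a core motif, GCGTG. Nuclear receptors and sex-dependent growth hormone pulses control many of the others in liver.

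The upstream sequences of family 1 are shown because its 3 members, which share 1 receptor, put the arrays in different orders. Each is the 150 bases before the annotated start, 5′ to 3′ on the gene's strand, from RefSeq on GRCm38.p6. Capitals mark GCGTG, its reverse complement, or TATAAA, the letters of a TATA box.
Cyp1a1: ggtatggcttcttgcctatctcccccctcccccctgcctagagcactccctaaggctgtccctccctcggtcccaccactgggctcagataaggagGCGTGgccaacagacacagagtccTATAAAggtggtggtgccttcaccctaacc
Cyp1a2: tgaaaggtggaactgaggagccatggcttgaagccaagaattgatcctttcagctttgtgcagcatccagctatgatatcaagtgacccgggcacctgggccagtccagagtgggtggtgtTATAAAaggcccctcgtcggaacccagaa
Cyp1b1: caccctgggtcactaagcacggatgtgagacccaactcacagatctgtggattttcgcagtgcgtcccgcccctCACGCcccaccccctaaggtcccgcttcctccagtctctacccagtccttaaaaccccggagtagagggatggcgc
The Cyp1a1 stretch, chr9:57697463-57697612 on the plus strand, holds GCGTG at position -54 and TATAAA at -30 from the start. The Cyp1a2 stretch, chr9:57683656-57683805 on the minus strand, holds TATAAA at -29 and no GCGTG. The Cyp1b1 stretch, chr17:79715062-79715211 on the minus strand, holds GCGTG on the other strand at -76 and no TATAAA. Searched on both strands over windows of this length, GCGTG stood in 20.5% of 32851 promoter entries and in 9 of the 69 entries of these P450 genes, and TATAAA stood in 7.57% and in 22 of 69. The entries covered 62 of the 80 genes. A motif this common does not by itself mark a receptor site, and sequence further upstream was not searched.

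Levels are RMA values on the log2 scale, so 1 unit is a doubling, and a level is not comparable between genes because probes differ. A level was called above background where it exceeded the mean of that array's own 23 antigenomic control rows, probe sets with no match in the mouse genome, which lay between 4.67 and 5.17. By this measure 44 genes were above background on all 11 arrays, 24 on some and 12 on none. All 3 genes of family 1 were above background on every array, as were 26 of 47 in family 2, 1 of 9 in family 3 and 14 of 21 in family 4. Within Cyp2d all 9 genes were, but only 5 of 14 in Cyp2c and 1 of 5 in Cyp2b. The 12 below background on every array were Cyp2c39, Cyp2g1, Cyp2j8, Cyp2j11, Cyp2j12, Cyp2t4, Cyp3a57, Cyp3a59, Cyp4a29, Cyp4a32, Cyp4f39 and Cyp4f40. A level below this mean is not shown to be absent, since the SD over the control rows of an array was between 2.16 and 2.53.

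The cells had the markers of their label. A list of 19 LSEC markers, among them Stab2, Clec4g, Lyve1 and Kdr, had a mean level of 11.82 ± 0.11 (SD, n = 6) without Cre and 11.83 ± 0.12 (SD, n = 5) with it, and 0 of 19 met the study's rule for a difference. Hepatocyte markers were read as well: 23 of 24 measured hepatocyte markers were above background on all arrays, with P450 genes left out of that list. Their mean lay between 8.52 and 9.92 in wild type and between 7.77 and 9.20 in knockout. In bulk RNA, fewer cells of a type and less RNA per cell cannot be told apart.

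Between the genotypes, P450 genes of families 1 and 2 included 8 that were lower in knockout by the study's rule, which asks for a fold of 1.5 or more and a p of 0.05 or less before adjustment, and none that were higher. These were Cyp1a2, Cyp1b1, Cyp2a12, Cyp2c23, Cyp2c67, Cyp2c70, Cyp2e1 and Cyp2j5, with differences of -0.64 to -0.90 on the log2 scale. Over all 22206 clusters, 0.356% were lower and 0.671% were higher by the same rule. Every one of the 8 was above the background mean on all arrays, but at the mean plus 1 SD only Cyp2e1 was. None of the 80 passed an adjusted p of 0.05 in limma with Benjamini-Hochberg adjustment over all clusters (smallest adjusted p = 0.76), and neither did any other cluster, a share of 0%.

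The direction was shared widely. The difference was below 0 in 74 of 80 genes and above 0 in 6, with a median of -0.28. Over all clusters 54.0% were below 0, and the median was -0.018. Among the 61 P450 genes above background on at least 6 arrays the median was -0.30, against -0.0073 over the 18262 clusters that met the same limit. With limma's p before adjustment at 0.05 or less, 18 of the 80 were lower and 0 higher, where 3.78% of all clusters were lower and 2.61% higher. By family the median difference was -0.66 in family 1, -0.28 in family 2, -0.42 in family 3 and -0.14 in family 4. The number below 0 was 67 of 80 with each array centred on its median, which moved the median of all clusters to 0.022, and 68 after a second quantile normalization.

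**Figure D1:**
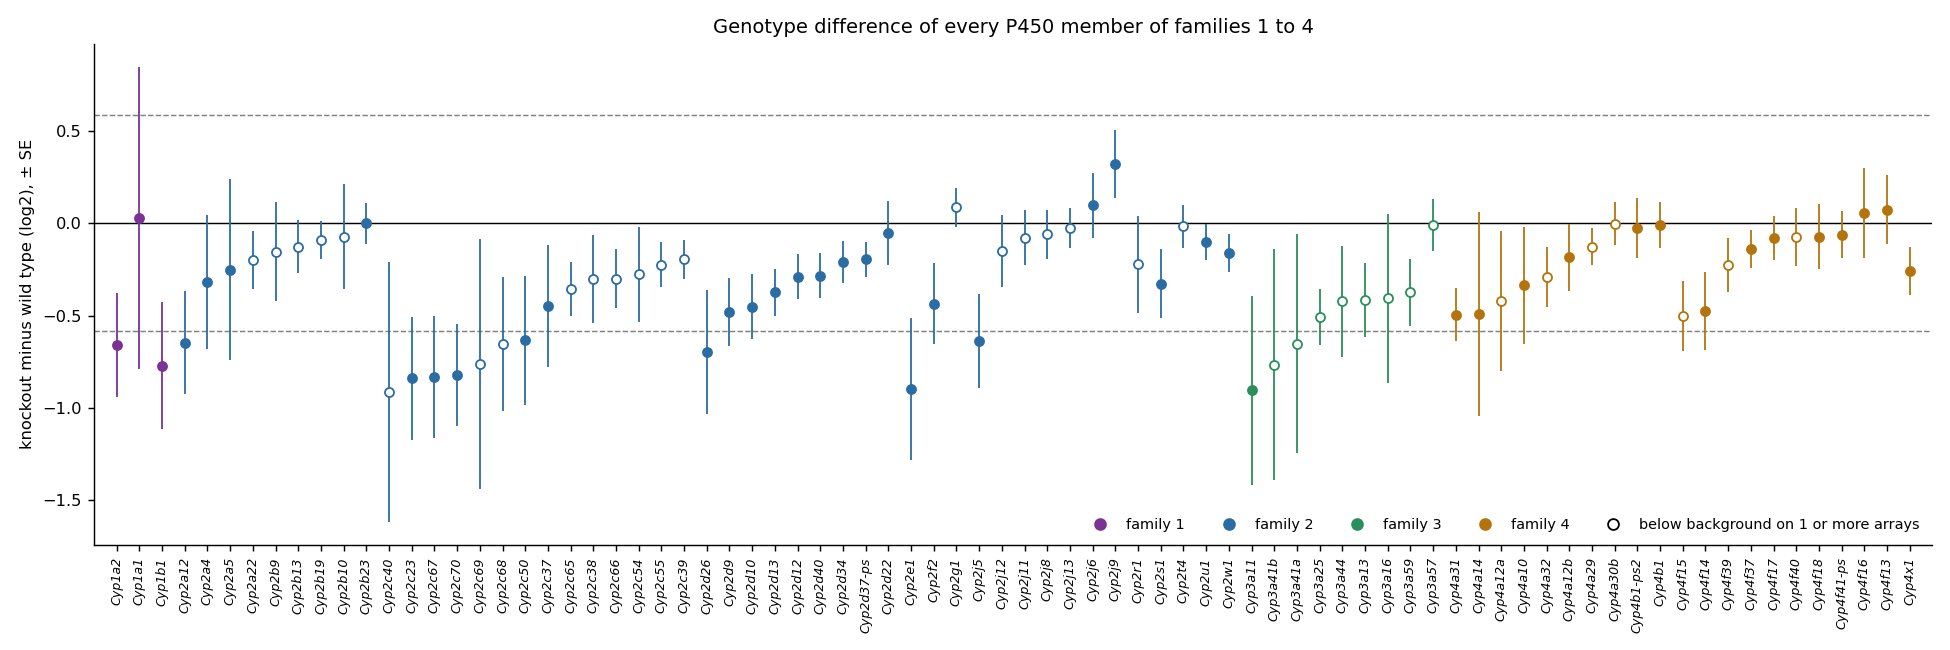
Knockout minus wild type difference in level (log2) of each of the 80 genes, with limma's standard error as bars, ordered by family and subfamily. Filled points were above background on all 11 arrays, dashed lines mark a fold of 1.5, and points lie below 0 for 74 genes, with the widest bar at Cyp1a1.

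Hepatocyte markers were lower in knockout too. All 24 differences were below 0, 15 met the rule as lower, and the median was -0.82; examples are Serpina1a, an antitrypsin (-1.20), Apoa1, the main protein of high-density lipoprotein (-1.12), and Alb, albumin (-0.47), which did not meet the rule. Wild type arrays averaged 9.08 ± 0.52 (SD, n = 6) over the list, and knockout arrays 8.31 ± 0.55 (SD, n = 5). Macrophage markers went the other way, with 14 of 17 higher by the rule and a median of 1.12. Their list mean lay between 7.10 and 8.28 in wild type and between 7.67 and 9.91 in knockout. The part of either list in the P450 differences was not tested.

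Among the 8, Cyp2c70 had the most stable difference. This enzyme makes muricholic acids, the bile acids typical of rodents. Its levels on wild type arrays 1 to 6 were 7.14, 6.50, 7.38, 6.85, 8.19 and 6.64, and on knockout arrays 1 to 5 they were 6.42, 6.77, 6.49, 6.06 and 5.73. All 5 knockout arrays were below the wild type mean, although the groups overlapped. The means were 7.12 ± 0.62 (SD, n = 6) and 6.29 ± 0.40 (SD, n = 5), a 1.77-fold lower level (log2 -0.82, SE 0.28, two-sided exact permutation p = 0.028). It was the only one of the 80 with both a fold of 1.5 or more and an exact p of 0.05 or less, and it met the rule without each of the 11 arrays in turn (-0.61 to -0.95).

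A further pair of Cyp2c genes met the rule. Cyp2c23, formerly Cyp2c44, is an arachidonic acid epoxygenase. Its wild type levels were 7.0, 6.72, 6.34, 6.74, 8.17 and 6.67, and its knockout levels were 5.88, 7.08, 6.41, 5.41 and 5.72. Wild type array 5 stood above the rest, and knockout arrays 2 and 3 were within the wild type range (log2 -0.84, SE 0.33, exact permutation p = 0.056). Cyp2c67 read 7.77, 6.56, 6.17, 6.61, 7.91 and 6.42 in wild type and 6.27, 6.60, 5.29, 6.23 and 5.97 in knockout. Here wild type arrays 1 and 5 were high and knockout array 3 was low (log2 -0.84, SE 0.33, exact permutation p = 0.065). Cyp2c23 lost the call without knockout array 1, 4 or 5, with differences of -0.59 to -1.08 over all arrays left out in turn. Cyp2c67 lost it on omission of wild type arrays 1 and 5 and of knockout array 3 (-0.63 to -0.98).

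Cyp2e1, which oxidises ethanol and paracetamol and lies around the central vein, had the widest mean difference of the 8. The wild type arrays read 9.27, 8.37, 7.70, 9.44, 9.64 and 8.64 and the knockout arrays 7.86, 9.29, 7.49, 7.63 and 7.45. Knockout array 2 was as high as wild type array 1, whereas the other 4 knockout arrays were at 7.86 or less. The level was 1.87-fold lower (log2 -0.90, SE 0.39, exact permutation p = 0.076). Cyp1a2, another pericentral enzyme that demethylates caffeine, read 7.26, 7.18, 6.87, 7.46, 8.04 and 6.99 in wild type and 6.22, 7.62, 7.03, 6.26 and 6.08 in knockout (log2 -0.66, SE 0.28, exact permutation p = 0.080). Knockout arrays 2 and 3 lay inside the wild type range, and 3 knockout arrays lay below it. Cyp2e1 met the rule in 4 of 11 fits that left out 1 array; omission of wild type arrays 1, 4 and 5 and of knockout arrays 1, 3, 4 and 5 each ended the call (-0.74 to -1.24). Cyp1a2 met it in 6, and the call ended on omission of wild type arrays 4 and 5 and of knockout arrays 1, 4 and 5 (-0.51 to -0.90).

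Cyp2a12, a steroid hydroxylase that also rehydroxylates secondary bile acids, read 7.12, 6.90, 7.18, 7.79, 7.66 and 6.78 in wild type. In knockout it read 6.17, 7.76, 6.25, 6.36 and 6.41, so knockout array 2 alone was inside the wild type range (log2 -0.65, SE 0.28, exact permutation p = 0.091). Cyp2j5, an arachidonic acid epoxygenase, read 7.45, 6.54, 6.70, 6.95, 7.69 and 6.76 in wild type and 6.36, 7.21, 6.30, 5.76 and 6.26 in knockout. Again knockout array 2 was alone inside the wild type range (log2 -0.64, SE 0.26, exact permutation p = 0.067). Cyp2a12 met the rule in 4 of 11 fits that left out 1 array, and the call ended on omission of wild type arrays 3, 4 and 5 and of knockout arrays 1, 3, 4 and 5 (-0.54 to -0.94). Cyp2j5 met it in 7, and it ended for wild type arrays 1 and 5 and knockout arrays 4 and 5 (-0.48 to -0.84).

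**Figure D2:**
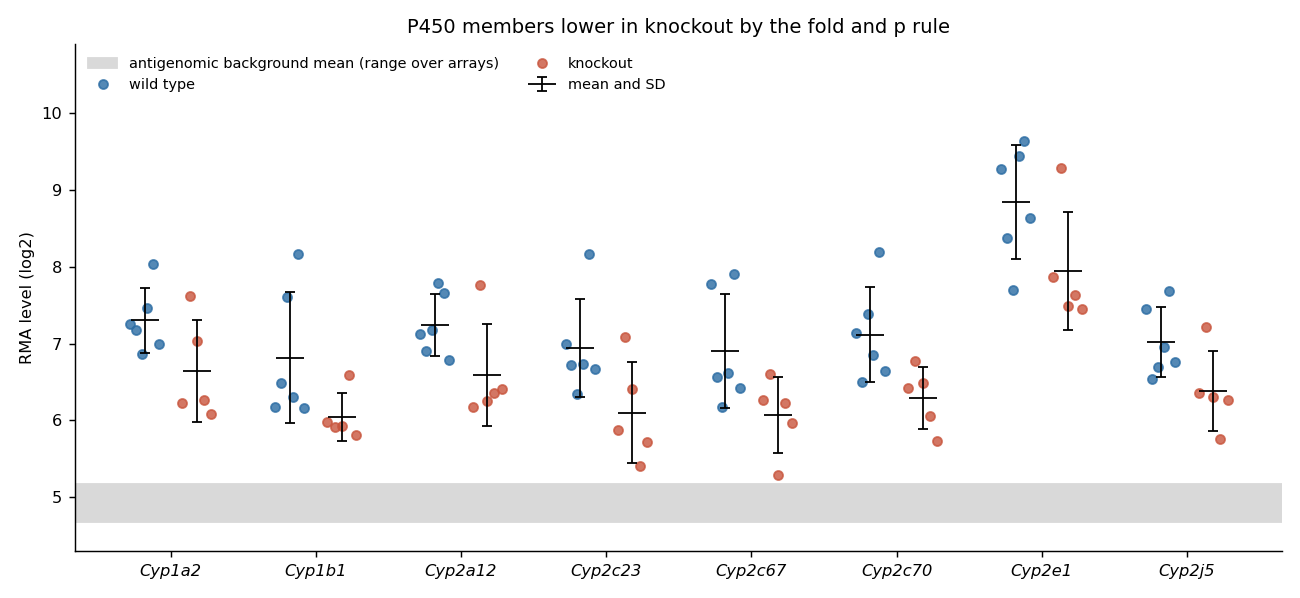
Levels (log2) of the 8 P450 genes that were lower in knockout by the rule, 1 point per array, with the mean and SD of each genotype (6 wild type, 5 knockout) and a grey band for the range of the arrays' antigenomic background means. The genotypes overlap in all 8 genes, and 1 knockout array, array 2, stands above the other knockouts in several.

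The count of 8 moved with single arrays. It was 2 without wild type array 5 or knockout array 5, 3 without knockout array 1 or 4, 4 without knockout array 3 and 5 without wild type array 1 or 4. It was 13 without knockout array 2 and 12 without wild type array 3. The lower calls over all clusters, 79 with every array, were 37 without wild type array 5, 38 without knockout array 5, 48 without knockout array 1 and 40 without knockout array 4. They were 69 without knockout array 3, 65 and 50 without wild type arrays 1 and 4, 138 without knockout array 2 and 81 without wild type array 3. Knockout array 2 had the highest hepatocyte marker mean of its genotype (9.20, where the other knockouts lay between 7.77 and 8.36), and wild type array 5 had the highest of all (9.92). For 7 of the 8 genes the highest wild type array was array 5, and for 7 the highest knockout array was array 2. Knockout array 2 also had the highest macrophage marker mean (9.91). Just outside the rule, with a sufficient fold and a larger p, were Cyp2d26 (-0.70, limma p = 0.058, exact permutation p = 0.11), Cyp2c50 (-0.63, limma p = 0.092, exact permutation p = 0.16) and Cyp2c68 (-0.65, limma p = 0.093, exact permutation p = 0.17). Just inside were Cyp2e1, Cyp2a12 and Cyp1b1, whose limma p-values of 0.036, 0.037 and 0.042 stand beside the exact permutation p-values given with each gene.

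**Figure D3:**
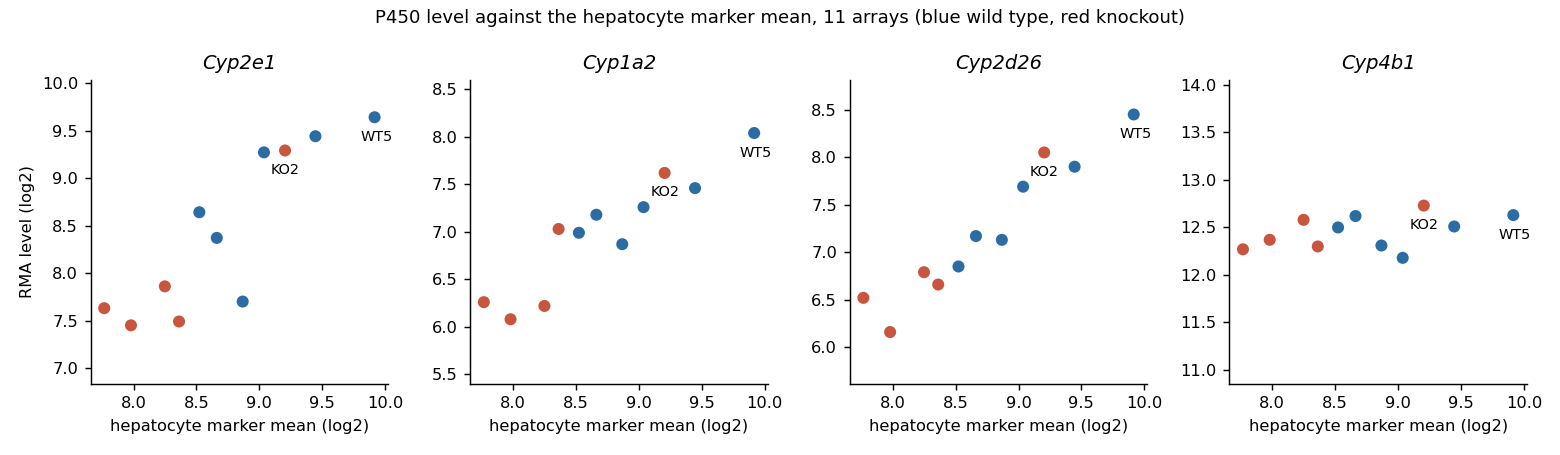
Level (log2) of Cyp2e1, Cyp1a2, Cyp2d26 and Cyp4b1 against the mean of 24 hepatocyte markers (log2) on each of the 11 arrays, with vertical axes of equal span. Cyp2e1, Cyp1a2 and Cyp2d26 are higher on the arrays of high marker mean, such as wild type array 5 and knockout array 2, and Cyp4b1 stays between 12.18 and 12.73.

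Cyp1b1 had another pattern among the 8. This enzyme oxidises polycyclic hydrocarbons, oestrogens and retinoids. It read 6.17, 6.49, 7.60, 6.31, 8.16 and 6.16 on the wild type arrays and 5.98, 5.91, 5.92, 6.59 and 5.81 on the knockout arrays. Wild type arrays 3 and 5 were high, and the other 4 lay close to the knockouts. The mean was 6.82 ± 0.85 (SD, n = 6) against 6.04 ± 0.31 (SD, n = 5), 1.71-fold lower (log2 -0.77, SE 0.34, exact permutation p = 0.087). It met the rule in 5 of 11 fits that left out 1 array and not when wild type arrays 3 and 5 or knockout arrays 1, 2, 3 and 5 were dropped singly (-0.50 to -0.91). The call also ended after a second quantile normalization (-0.71) and with a Y-linked covariate (-0.78).

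Cyp1a1, the classic target of the aryl hydrocarbon receptor, varied most between arrays of all 80 genes without differing by genotype beyond that spread. The wild type levels were 10.95, 10.09, 8.52, 8.73, 8.63 and 11.53, and the knockout levels were 9.11, 6.73, 11.53, 11.30 and 10.19. The highest arrays, wild type 6 and knockout 3, had the same level in opposite genotypes, and the lowest, knockout 2, was 27.9-fold below them. The genotype difference was 0.030 (SE 0.82, exact permutation p = 0.97), and it ranged from -0.41 to 0.79 as single arrays were left out. The upstream stretch with GCGTG and TATAAA belongs to this gene, and that of Cyp1b1 also holds GCGTG. Whether the receptor binds at either GCGTG was not tested, and a stretch without GCGTG, as in Cyp1a2, does not exclude sites further upstream. A link between motif and level was not tested.

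The receptor and its targets were read beside it. The 4 arrays with the highest Cyp1a1, wild type 1 and 6 and knockout 3 and 4, were also the 4 highest for the receptor Ahr (8.87 to 9.41), for Tiparp, another induced target (9.86 to 10.99), and for Cyb5a, cytochrome b5 (12.04 to 12.33). They were the 4 with the highest mean of the array's intron control rows as well, 5.75 to 5.96 against 5.05 to 5.38 on the others; the part of that measure in these levels was not tested. Ahrr, the receptor's repressor, lay between 6.95 and 7.31 and did not follow this order, and neither did Cyp1a2 or Cyp1b1, whose highest array was wild type 5. Ahr differed by 0.20 (SE 0.29) and Tiparp by 0.10 (SE 0.47) between genotypes.

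**Figure D4:**
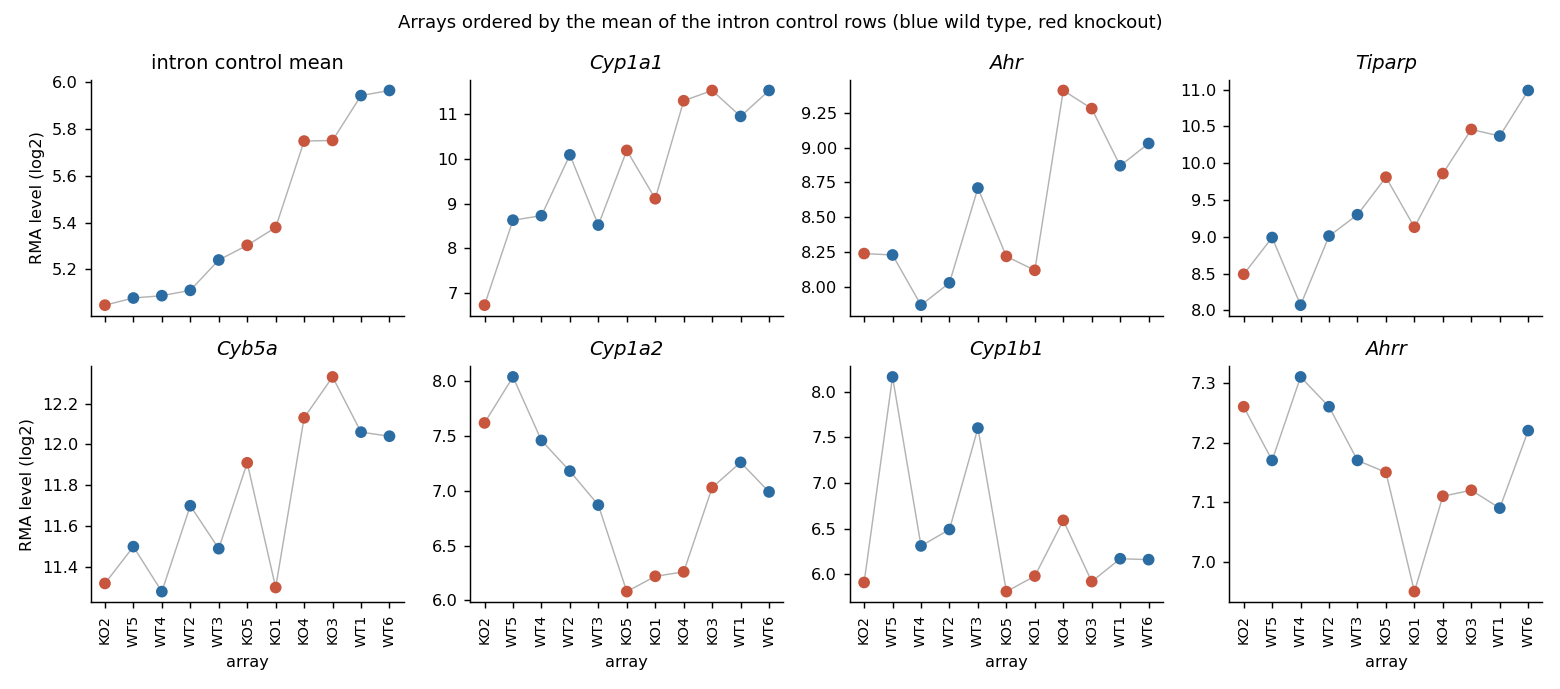
Levels (log2) of the intron control mean and of Cyp1a1, Ahr, Tiparp, Cyb5a, Cyp1a2, Cyp1b1 and Ahrr on 11 arrays, ordered from low to high intron control mean, with wild type in blue and knockout in red. Vertical axes differ between panels; the 4 arrays on the right are the highest for Cyp1a1, Ahr, Tiparp and Cyb5a and not for Cyp1a2, Cyp1b1 or Ahrr.

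Without these 4 arrays, 6 genes met the rule as lower, of which Cyp1b1 and Cyp2c70 were among the 8; Cyp2d9, Cyp2f2, Cyp4a31 and Cyp4f15 were added. Over all clusters that fit gave 105 lower and 254 higher, against 79 and 149 with all arrays. The Cyp1a1 difference was then -0.32. That fit compared 4 wild type with 3 knockout arrays.

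The remaining drug-metabolising genes of families 2 and 3 were mostly lower in knockout without meeting the rule. Of 34 measured genes on a list of these enzymes, all 34 were below 0, 4 met the rule, and the median was -0.43. Over all clusters 54.0% were below 0. Of the 34, 15 were above background on all arrays and 3 on none. Values of close copies such as Cyp2a4 and Cyp2a5 cannot be taken as independent. Cyp3a11, the main mouse enzyme of its kind and a target of the pregnane X receptor, had the largest difference on the list among genes above background on all arrays. Its wild type levels were 9.32, 7.72, 6.40, 7.25, 9.60 and 7.71 and its knockout levels 6.93, 8.21, 6.97, 6.50 and 6.86. The spread over wild type arrays alone covered that of the knockouts (log2 -0.91, SE 0.51, exact permutation p = 0.19). Cyp2d26 was at 7.53 ± 0.59 (SD, n = 6) and 6.84 ± 0.72 (SD, n = 5), and Cyp2c50 at 7.23 ± 0.82 and 6.60 ± 0.43. Cyp2c37 (-0.45, SE 0.33), the coumarin hydroxylase Cyp2a5 (-0.25, SE 0.49) and Cyp2a4 (-0.32, SE 0.36) differed by less than the SD within a genotype. Cyp3a25, the family 3 gene with the smallest p, was above background on 10 arrays and read 5.95, 5.58, 5.07, 5.48, 5.54 and 5.54 in wild type and 5.27, 5.15, 4.68, 4.94 and 5.06 in knockout (log2 -0.51, SE 0.15, exact permutation p = 0.011).

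In the Cyp2d subfamily all 9 differences were below 0 and 0 met the rule. Cyp2d26, given above, had the largest (-0.70) and ranged over 2.29 units between arrays. Cyp2d13 read 9.35, 9.14, 9.03, 9.62, 9.37 and 9.20 in wild type and 8.61, 8.89, 8.97, 8.97 and 9.12 in knockout. All 5 knockout arrays were below the wild type mean, and the difference was -0.37 (SE 0.13, exact permutation p = 0.011), a fold of 1.30. Cyp2d9 (-0.48), Cyp2d10 (-0.45), Cyp2d12 (-0.29) and Cyp2d40 (-0.28) also reached 0.05 in limma before adjustment with folds under 1.5, which made 5 of 9 in this subfamily. Cyp2d34 (-0.21, SE 0.11) and the pseudogene Cyp2d37-ps (-0.20, SE 0.10) were above that p. Cyp2d22 differed from these: it read 10.08 to 10.77 in wild type and up to 10.80 in knockout, with a difference of -0.053 (SE 0.17). Cyp2d genes lie close in sequence, and the specificity of their probes was not checked.

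By position in the liver lobule, 7 measured pericentral P450 genes had a median difference of -0.63 with all 7 below 0, of which Cyp1a2 and Cyp2e1 met the rule. Cyp2c54, also pericentral, was above background on 10 arrays and differed by -0.28 (SE 0.26). The periportal gene on the list, Cyp2f2, which activates naphthalene, read 7.53, 7.57, 8.09, 8.30, 8.17 and 7.84 in wild type and 6.86, 7.90, 8.07, 7.26 and 7.31 in knockout. Knockout arrays 1, 4 and 5 were below every wild type array, and the difference was -0.44 (SE 0.22, exact permutation p = 0.11). The difference between the zones was not tested.

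Some sex-biased P450 genes split the arrays in a way the labels do not give. The Y-linked genes Eif2s3y, Kdm5d and Uty had a mean level of 8.17 on wild type array 3, 8.51 on wild type array 6 and 8.02 on knockout array 3, and of 3.42 to 3.79 on the other 8 arrays. On those 8 each of these genes was below background. The 3 arrays of high level, 2 of wild type and 1 of knockout, therefore hold RNA from male cells. Cyp4a12a, a fatty acid hydroxylase that is typical of male liver, was highest on those same arrays, at 6.40, 6.23 and 5.87. On the other 8 it lay between 4.27 and 5.03. Cyp4a12b was highest on them too, at 6.58, 6.35 and 6.55, though wild type array 4 came close at 6.31. Cyp2d9, a male-biased testosterone hydroxylase, did not follow them: wild type array 4 was its highest, at 9.31.

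Some female-biased genes ran the other way. Cyp2c69 was at 4.70, 4.74 and 4.80 on wild type arrays 3 and 6 and knockout array 3, and at 7.86, 6.85, 5.70 and 8.59 on wild type arrays 1, 2, 4 and 5. On knockout arrays 1, 2, 4 and 5 it was at 5.93, 7.03, 5.06 and 5.40. Cyp3a41a, an enzyme of female liver, was at 7.85, 7.38, 5.09 and 7.14 on wild type arrays 1, 2, 4 and 5 and at 4.70 and 5.20 on arrays 3 and 6. It was at 6.10, 6.76, 4.72 and 5.41 on knockout arrays 1, 2, 4 and 5 and at 4.88 on array 3. Wild type array 4 and knockout array 4 thus had low levels of both the Y-linked genes and Cyp3a41a. Other female-biased genes did not split the arrays this way. Cyp2b13 was at 5.47 on wild type array 6 and at 5.05 on knockout arrays 4 and 5. Cyp2b9 was at 5.26 on knockout array 3 and at 4.79 on wild type array 1. Cyp3a44 was at 5.08 on knockout array 3 and at 4.88, 4.64 and 4.63 on knockout arrays 1, 4 and 5. Cyp2b13, Cyp2b9 and Cyp3a44 were close to the background mean, which limits what they can show. They were above it on 10, 8 and 7 arrays. The mean of 9 female-biased genes spanned 4.69 to 6.83 in wild type and 4.79 to 6.42 in knockout. All 9 were below 0, 0 met the rule, and 1 was above background on all arrays. Their largest differences were in Cyp2c40 (-0.91, SE 0.70), Cyp3a41b (-0.77, SE 0.63) and Cyp2c69 (-0.76, SE 0.68). Smaller ones were in Cyp3a44 (-0.42, SE 0.30), Cyp3a16 (-0.41, SE 0.46), Cyp2b9 (-0.155, SE 0.27) and Cyp2b13 (-0.13, SE 0.14).

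**Figure D5:**
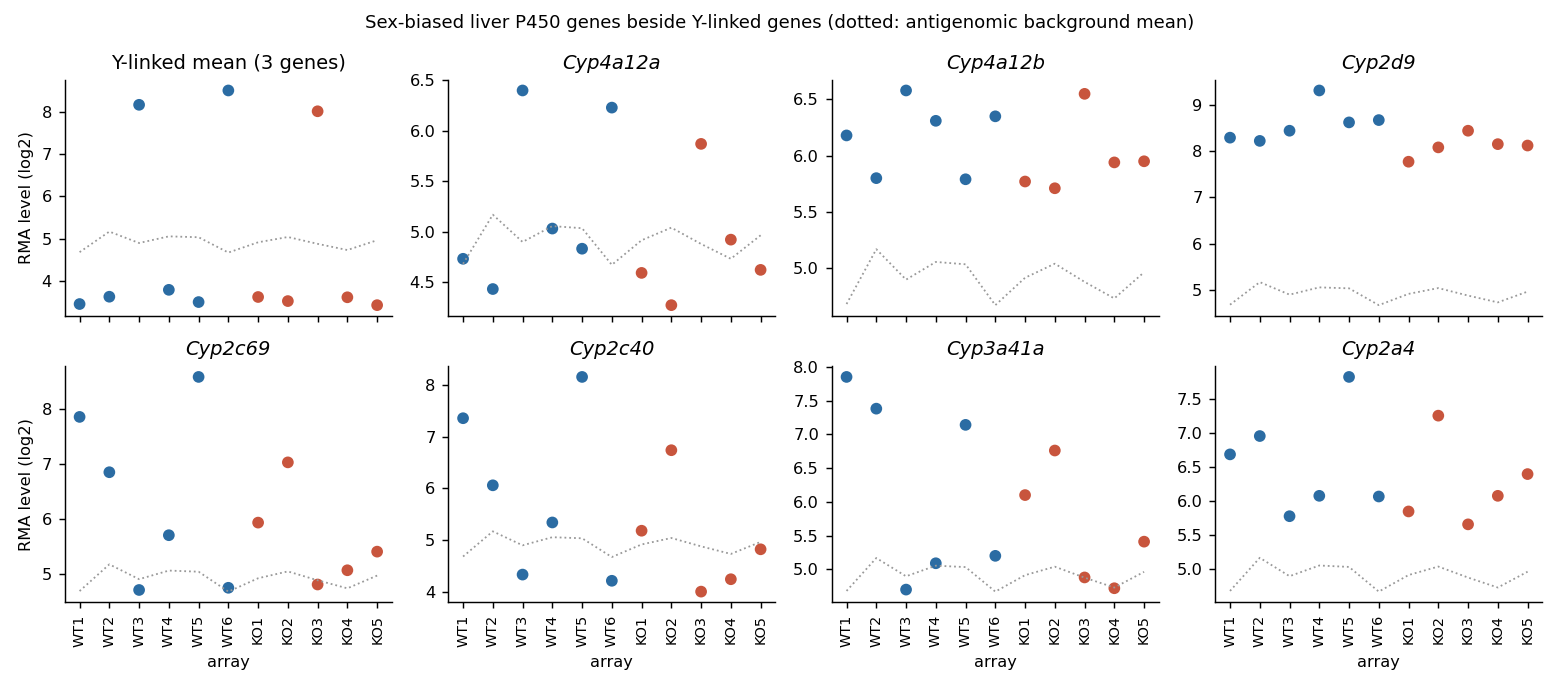
Mean of 3 Y-linked genes and levels (log2) of the male-biased Cyp4a12a, Cyp4a12b and Cyp2d9 and the female-biased Cyp2c69, Cyp2c40, Cyp3a41a and Cyp2a4 on each array, wild type in blue and knockout in red, with each array's background mean as a dotted line. Vertical axes differ between panels; wild type arrays 3 and 6 and knockout array 3 are high for the Y-linked mean and Cyp4a12a and low for Cyp2c69, Cyp2c40 and Cyp3a41a.

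With the Y-linked mean as a covariate, chosen after the values were seen, 13 genes met the rule as lower, 7 of them among the 8. Cyp2c40, Cyp2c68, Cyp2c69, Cyp2d26, Cyp3a11 and Cyp3a41b were added and Cyp1b1 was lost, and the smallest adjusted p of the 80 in limma was 0.64. Over all clusters the lower calls went from 79 to 103 and the higher calls from 149 to 127. The female-biased genes include close copies, shown by the upstream stretches of Cyp3a41a, chr5:145720137-145720286, and Cyp3a41b, chr5:145584731-145584880, both on the minus strand of GRCm38.p6. The capital marks the 1 base of 150 that differs, at position -29.
Cyp3a41a: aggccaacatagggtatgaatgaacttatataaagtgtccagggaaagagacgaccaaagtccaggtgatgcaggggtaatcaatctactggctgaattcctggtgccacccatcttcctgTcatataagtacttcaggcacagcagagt
Cyp3a41b: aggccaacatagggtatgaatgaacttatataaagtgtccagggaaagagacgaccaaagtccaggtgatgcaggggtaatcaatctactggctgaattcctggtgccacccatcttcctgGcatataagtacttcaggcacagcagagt
Aligned without gaps at the best offset of their longer RefSeq entries, these 2 were 97.3% identical over 300 bases, Cyp2c40 and Cyp2c69 98.9% over 270 and Cyp2a4 and Cyp2a5 98.3% over 299, whereas Cyp3a41a and Cyp3a11 shared 42.0% over 288. Whether the probes tell such copies apart was not checked, so their values cannot be taken as independent.

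Among enzymes that act on arachidonic acid and related lipids, the epoxygenase list had 8 measured genes, of which Cyp2c23 and Cyp2j5 were lower by the rule. Cyp2j9 had the largest difference above 0 of the 80, at 0.32 (SE 0.18, exact permutation p = 0.15). It read 6.0, 5.97, 6.85, 6.14, 6.63 and 6.08 in wild type and 6.87, 6.69, 6.56, 6.14 and 6.74 in knockout, with wild type array 3 below knockout array 1 alone and wild type array 5 within the knockout range. Cyp2j6 lay between 7.39 and 8.50 with a difference of 0.097 (SE 0.18).

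The Cyp4a omega-hydroxylases, targets of the fatty acid receptor PPAR alpha, were all 8 below 0 with a median of -0.31, and 0 met the rule. Of the 8, 4 were above background on all arrays and 2 on none. Cyp4a31 was the only one of the 80 in which every knockout array was below every wild type array, a pattern found in 0.293% of all clusters. It read 5.78, 5.97, 5.52, 5.87, 6.31 and 5.57 in wild type and 5.11, 5.42, 5.33, 5.45 and 5.40 in knockout. The difference was -0.49 (SE 0.14, exact permutation p = 0.0065), a fold of 1.41, at levels close to the background means of 4.67 to 5.17. Cyp4a14, a strongly inducible gene of the group, read 8.64, 6.21, 5.40, 5.97, 7.81 and 5.50 in wild type and 5.94, 7.21, 5.24, 6.04 and 6.05 in knockout. Wild type arrays 1 and 5 and knockout array 2 were high, and the difference was -0.49 (SE 0.55). Cyp4a10 was high on the same 3 arrays, at 7.42, 6.85 and 6.54, with a difference of -0.33 (SE 0.32).

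The Cyp4f group, which inactivates leukotrienes and hydroxylates long fatty acids, had a list median of -0.080 over 9 genes and 0 that met the rule. Cyp4f14, a liver leukotriene hydroxylase, was at 7.01 ± 0.38 (SD, n = 6) in wild type against 6.54 ± 0.40 (SD, n = 5) (-0.48, SE 0.21, exact permutation p = 0.071). Cyp4f15, above background on 10 arrays, was at 5.61 ± 0.35 and 5.11 ± 0.33 (-0.50, SE 0.19, exact permutation p = 0.028). The other Cyp4f genes above background on all arrays had differences near 0: Cyp4f13 0.073, Cyp4f16 0.057, Cyp4f17 -0.080, Cyp4f18 -0.072, Cyp4f37 -0.14 and the pseudogene Cyp4f41-ps -0.061, with SEs of 0.10 to 0.24. Cyp4f18 is known from neutrophils, whose 9 measured markers had a list mean of 6.67 ± 0.41 (SD, n = 6) and 6.60 ± 0.66 (SD, n = 5).

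Several genes varied little between arrays. Cyp4b1, a fatty acid hydroxylase known for activating furan toxins in lung, read 12.18, 12.62, 12.31, 12.51, 12.63 and 12.50 in wild type and 12.58, 12.73, 12.30, 12.27 and 12.37 in knockout. The highest and lowest arrays differed by 0.55, and the genotype difference was -0.0083 (SE 0.12). The pseudogene Cyp4b1-ps2 lay between 8.82 and 9.69 with a difference of -0.023 (SE 0.16); how well its probes tell it from Cyp4b1 was not checked. Cyp2u1, a fatty acid hydroxylase outside liver, lay between 7.12 and 7.53 (-0.10, SE 0.10), and Cyp2b23 between 5.50 and 5.87 (-0.00067, SE 0.11).

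The rest of the widely expressed genes gave smaller numbers. Cyp2s1, an epithelial enzyme, was at 6.07 ± 0.39 (SD, n = 6) and 5.75 ± 0.25 (SD, n = 5), Cyp2w1 at 6.19 ± 0.14 and 6.03 ± 0.11, and Cyp4x1 at 6.17 ± 0.20 and 5.91 ± 0.21. The differences were -0.33, -0.16 and -0.26, with exact permutation p-values of 0.17, 0.067 and 0.067. Cyp2r1, the vitamin D 25-hydroxylase, was above background on 5 arrays. Cyp2b10, the standard target of the receptor CAR, was above it on 1 array, wild type array 5.

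The partners of these enzymes were counted by the same rule. The lists held 6 measured electron donors and related proteins, 22 regulators and 11 genes of heme synthesis and breakdown. Of these, 0 met the rule in either direction, and the list medians were 0.029, 0.026 and -0.0080. The first list was Cyb5a, Cyb5b, Cyb5r1, Cyb5r3, Fdx1 and Pgrmc1, and P450 reductase (Por) was not analysed here. The smallest p in limma among the regulators was that of Nr1i3, the receptor CAR (-0.21, SE 0.10, exact permutation p = 0.019). Among electron donors it was that of Cyb5b (0.22, SE 0.22), and among heme genes that of Alad (-0.39, SE 0.23). Of 4 epoxide hydrolases, Ephx2, which turns arachidonic epoxides into diols, was lower by the rule (-0.60, SE 0.27, limma p = 0.045, exact permutation p = 0.093). Of 17 measured P450 genes beyond family 4, 0 met the rule. Among them Cyp8b1, the bile acid 12-hydroxylase, had the smallest p in limma (-0.39, SE 0.12, exact permutation p = 0.0087), followed by Cyp21a1 (-0.31, SE 0.12), Cyp46a1 (-0.39, SE 0.15) and Tbxas1, thromboxane synthase (0.56, SE 0.23).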

How the data were processed

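Total RNA of 11 LSEC samples was labelled from 100 ng and hybridized to Mouse Clariom S arrays, per the labels' protocols. The submitters' processing notes name Affymetrix Expression Console and RMA without versions. The authors' deposited levels are log2 values, as their range of 2.15 to 13.79 shows. RMA makes the arrays' distributions of probe values equal before it summarizes clusters, so much of a shift shared by most genes would be removed; the cluster medians still lay between 6.61 and 6.745. Isolation of the cells and the genome build of the files are not given in the sources used here. Control rows (6640 of 28846) were left out, and 19572 of 22206 clusters had 1 symbol, 0 several and 2634 none. All 80 genes matched a RefSeq gene table by identifier.

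A linear model with genotype as its only term was fitted to all clusters in limma (version 3.58.1, R 4.3.3) and moderated by eBayes, and p-values were adjusted by Benjamini-Hochberg; the study's rule names no test. Exact two-sided permutation tests ran over 462 splits of the arrays, with 0.0022 as the smallest p. The fit was tested on simulated data. The genes and lists were chosen with earlier results of these data known. Some listed genes, among them Cyp2c29, Por and Xist, were not analysed here. Genes were named with values where they were above background on all arrays, met the rule, belonged to family 1 or to a sex-biased or zonation list, had the smallest p of their family or list, or lay next to the rule's limits; a few more, such as Cyp2b10, Cyp2r1 and Cyp4f15, were chosen after their values were seen. Alternatives were a replicate block, quantile normalization, median centring, array weights, a variance trend, a filter on dim clusters, other folds, other background limits and leaving out each array, and, added after seeing the data, the Y-linked covariate and leaving out 4 arrays. The number of arrays limits the precision.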

Additional observations from a re-analysis of the deposited data

Results flagged for a closer look

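Within each genotype, the levels of each gene were searched for an array whose gap to its neighbour was large against the range of the group (Dixon's 95% limit). This held in 13 of 160 groups of arrays, or 8.13%, and 8 of the 13 were knockout array 2. By chance the limit is passed in about 1 in 20 independent groups. The genes share the same arrays, so these groups are not independent and the shares cannot be compared. On that array Cyp2a12 (7.76), Cyp2c37 (7.5), Cyp2c50 (7.35), Cyp2c68 (5.53), Cyp2e1 (9.29), Cyp3a11 (8.21), Cyp4a10 (6.54) and Cyp4f17 (7.17) stood above the other knockouts. It also had the highest hepatocyte, macrophage and stellate marker means of the knockouts, at 9.20, 9.91 and 9.0; the part of these in the levels was not tested.

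Cyp2c23 stood apart on wild type array 5 (8.17). Cyp1b1 did so on knockout array 4 (6.59), Cyp4a12b on knockout array 3 (6.55), Cyp4f15, which was low, on knockout array 1 (4.54), and Cyp2t4, also low and below background, on wild type array 6 (4.23).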

How the results depend on the processing

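The count of 8 lower genes was 13 with array weights and 13 with the Y-linked covariate, and leaving out 1 array gave 2 to 13. It was 0 with a fold of at least 2 and 1 with the exact permutation p in place of limma's. Shares of all clusters with that fold or that p are not given here. Second quantile normalization gave 8, of which 7 were shared; Cyp1b1 (-0.71) lost the call and Cyp2d26 gained it. No P450 gene of the 80 was higher by the rule and none passed the adjusted p in any of these limma fits. Over all clusters the split of lower against higher calls was 79 against 149, 64 against 181 with median centring and 146 against 99 with array weights. With background set at the mean plus 1 SD, 8 genes rather than 44 were above it on all arrays. These 8 are a different set from the 8 lower genes, though Cyp2e1 is in both. The share of all clusters at that limit is not given here.

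Same-numbered arrays of the genotypes deviated together in no steady way (correlations -0.32 to 0.39), so the numbers were not taken as pairs; with the replicate block the same 8 genes met the rule.

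Some genes that met no rule changed sign. With second quantile normalization Cyp1a1 was -0.026, Cyp2b23 0.073 and Cyp4f41-ps 0.013. With median centring Cyp2b23 was 0.039, Cyp4b1 0.031 and Cyp4b1-ps2 0.016. With array weights Cyp2b23 was 0.052, Cyp2j6 -0.0092, Cyp4f13 -0.033 and Cyp4f16 -0.044. Without the 4 arrays of highest intron control mean Cyp1a1 was -0.32, Cyp2c54 0.064, Cyp2d22 0.072, Cyp3a16 0.12, Cyp3a41a 0.013, Cyp4a14 0.053, Cyp4b1 0.043 and Cyp4b1-ps2 0.10. With 1 array left out, the range was -0.41 to 0.79 for Cyp1a1, -0.64 to 0.016 for Cyp2a5, -0.039 to 0.044 for Cyp2b23, -0.33 to 0.013 for Cyp2b9, -0.14 to 0.060 for Cyp2d22, -0.016 to 0.21 for Cyp2j6, -0.078 to 0.037 for Cyp4b1, -0.13 to 0.084 for Cyp4b1-ps2, -0.055 to 0.19 for Cyp4f13, -0.10 to 0.21 for Cyp4f16, -0.16 to 0.046 for Cyp4f18 and -0.12 to 0.016 for Cyp4f41-ps. The cause was not tested. Levels close to the background mean limit what the dim genes can show.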
